A study of Caenorhabditis elegans with 2 samples.

Results

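The genes described here are the 81 cytosolic ribosomal protein genes of *Caenorhabditis elegans*, out of 19973 protein-coding genes on the nuclear chromosomes. They were chosen by symbol alone: every protein-coding gene named rpl- or rps- with a number, plus rla-0, rla-1 and rla-2. By symbol, 47 belong to the large subunit group (rpl), 31 to the small subunit (rps) and 3 to the acidic stalk (rla). Each was scored by the chromatin immunoprecipitation intervals whose summit, the position of highest signal in the interval, fell between 1000 bp upstream and 200 bp downstream of the annotated start. The data came from a single group of 2 biological replicates, whole L4 larvae of both sexes, 48 h old, grown from starved L1 larvae, so no condition was set against another. The strain, OP569, is mutant for unc-119 (allele tm4063) and carries the transgene wgIs569, which encodes the nuclear hormone receptor NHR-111 joined to TY1, EGFP and 3xFLAG tags beside a working unc-119 copy. An antibody against GFP recovered the tagged protein from all tissues together, so signal from different cell types cannot be separated. The labels used here do not say what drives the transgene or in which cells.

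Ribosomal proteins coat and brace the ribosomal RNAs. Those of the small subunit frame the channel of the messenger RNA and the decoding site, those of the large subunit surround the peptidyl transferase centre and the exit tunnel, and the stalk proteins recruit translation factors. Their genes are among the most strongly and broadly transcribed in animals, and growing larvae need their products in matched amounts. Worm messenger RNAs are often trans-spliced, a step that removes the original 5' end, so an annotated start can lie downstream of the place where transcription begins.

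The symbols were checked against a second annotation. In the RefSeq annotation of the same genome 20 of the 81 genes have another symbol, mostly a change of numbering, such as rpl-18A for rpl-20, rps-3A for rps-1 and rplp-0 for rla-0. Names of another form are fau-1 for rps-30, rpsa-1 for rps-0 and rsl-24D1 for rpl-24.2. The yeast counterpart of rpl-24.2, Rlp24, acts in the assembly of the large subunit. The symbols used below are those of Ensembl.

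Of the 81 genes, 9 had a summit among the 501 peaks that the authors kept by irreproducible discovery rate, a score of how alike the replicates rank the same peaks (the thresholded list). This was 11.1% (exact 95% interval 5.21 to 20%, counting error of genes only), beside 1.05% of all protein-coding genes. The 9 were rpl-3, rpl-15, rpl-35, rpl-20 and rpl-24.2 of the large subunit group and rps-16, rps-1, rps-19 and rps-20 of the small subunit. Both subunits were represented, with 5 of 47 rpl genes (10.6%) and 4 of 31 rps genes (12.9%), and none of the 3 stalk genes had such a peak. Each of the 9 had a single thresholded summit in its window, and no summit was shared by a pair of them. The signals below are those the authors deposited, on a scale that no label or header defines. They are compared within a list and described side by side between replicates.

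The DNA under 6 of these summits is shown because it lies where the recovered signal was highest, and because several of the sequences hold the same short words. Each run is the 101 bases centred on the pooled summit, on the strand of the ribosomal protein gene, from RefSeq's sequence of assembly WBcel235, which is the same sequence as the files' ce11. The positions are chrIII:3867544-3867644 for rpl-3 (plus strand), chrIV:654876-654976 for rpl-15 (minus strand), chrIII:7854633-7854733 for rpl-35 (plus strand), chrIV:4750005-4750105 for rpl-20 (minus strand), chrIII:4475606-4475706 for rps-1 (plus strand) and chrV:15000453-15000553 for rps-16 (minus strand). Capitals mark the words GAGTGT and TACGGT on either strand (reverse complements ACACTC and ACCGTA), words that were picked after the summits had been read.
rpl-3: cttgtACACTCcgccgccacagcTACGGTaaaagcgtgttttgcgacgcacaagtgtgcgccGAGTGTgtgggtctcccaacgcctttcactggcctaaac
rpl-15: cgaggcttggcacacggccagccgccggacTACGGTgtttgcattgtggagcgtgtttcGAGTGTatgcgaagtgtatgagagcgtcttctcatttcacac
rpl-35: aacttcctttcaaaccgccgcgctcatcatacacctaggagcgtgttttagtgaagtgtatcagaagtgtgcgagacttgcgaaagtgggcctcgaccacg
rpl-20: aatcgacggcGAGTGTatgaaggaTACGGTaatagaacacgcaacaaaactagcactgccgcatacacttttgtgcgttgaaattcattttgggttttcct
rps-1: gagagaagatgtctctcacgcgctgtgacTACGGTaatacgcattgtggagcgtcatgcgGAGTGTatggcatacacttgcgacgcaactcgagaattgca
rps-16: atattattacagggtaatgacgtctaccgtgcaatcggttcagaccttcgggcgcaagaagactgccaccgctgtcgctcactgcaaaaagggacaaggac

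The rpl-3 window has GAGTGT on both strands and 1 copy of TACGGT, and the rpl-15, rpl-20 and rps-1 windows each have 1 copy of both words. The rpl-35 window has neither, but holds the overlapping word AGTGTA, which also lies in the rpl-3, rpl-15, rpl-20 and rps-1 windows. The rps-16 window has none of the 3 and differs from the others in place: its summit lies in a coding exon of the gene, while the other 5 summits lie upstream of the start.

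Large subunit genes carried the 3 strongest of the 9 peaks. At rpl-3, which encodes a core protein beside the peptidyl transferase centre, the signal was 180 (rank 3 of 30000) in replicate 1 and 230.3 (rank 2) in replicate 2, a mean of 205 ± 35.6 (SD, n = 2), and 410 in the pooled list. At rpl-15, a structural protein of the large subunit, it was 81.4 in replicate 1 and 147 in replicate 2. At rpl-35, whose product sits beside the polypeptide exit tunnel, it was 95.6 in replicate 1 and 128 in replicate 2. At rpl-20 it was 83.9 in replicate 1 and 104 in replicate 2. These 4 genes were in the top 80 intervals of both replicates. The peak at rpl-24.2 had the lowest pooled signal of the 9, at 109, with 47.6 (rank 783) in replicate 1 and 58.9 (rank 502) in replicate 2.

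Among the small subunit genes the order by pooled signal was rps-16 (184), rps-1 (138), rps-19 (130.3) and rps-20 (113). At rps-16, a protein near the bound transfer RNA, the signal was 76.4 in replicate 1 and 106 in replicate 2, a mean of 91.1 ± 20.7 (SD, n = 2). At rps-1 it was 58.8 in replicate 1 and 80.2 in replicate 2. Both were inside the 501 strongest intervals of each replicate. The peak at rps-19, whose human counterpart is mutated in Diamond-Blackfan anaemia, was less even, with 45.6 (rank 954) in replicate 1 and 79.7 (rank 150) in replicate 2. At rps-20 the replicates were closest together, with 51.5 in replicate 1 and 56.7 in replicate 2.

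**Figure D1:**
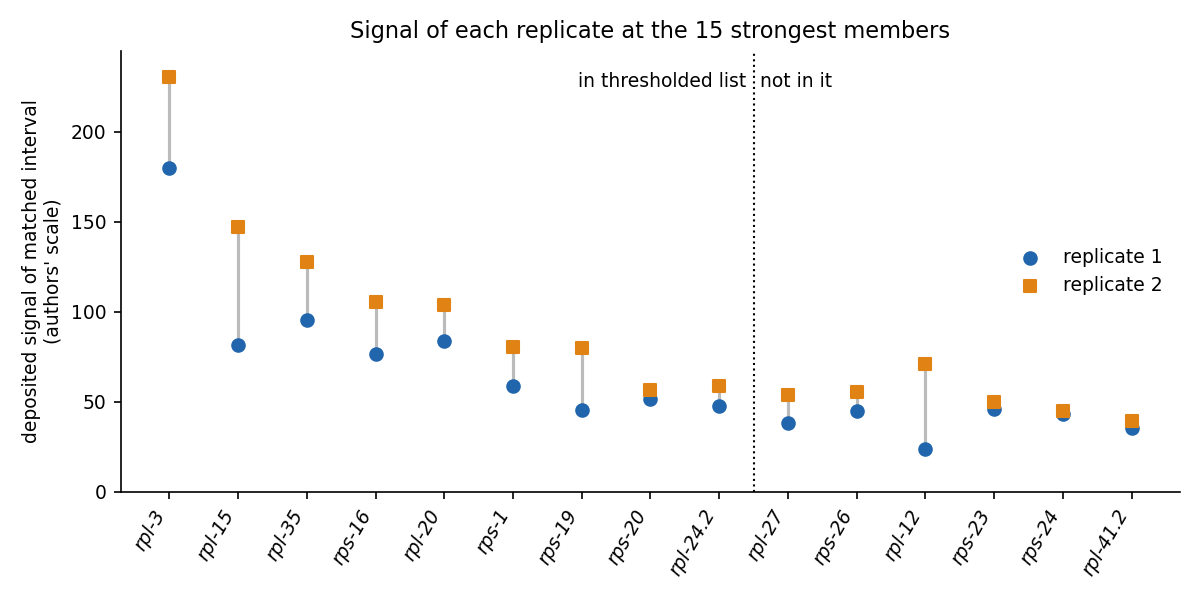
Deposited signal (vertical axis, authors' scale) of replicate 1 (circles) and replicate 2 (squares) at the interval matched within 200 bp to the strongest pooled summit of the 15 members with the highest pooled signal. The 9 members left of the dotted line have a thresholded peak, and rpl-3 stands highest at 180 and 230.3. At rpl-12 the replicates lie furthest apart relative to their size.

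Replicate 2 was higher than replicate 1 at all 9 peaks, with a median ratio of 1.34 and a range of 1.10 to 1.81. Over the 495 thresholded peaks with a match in both replicates the median ratio was 1.18, and 70.3% were above 1, so the direction was shared with most of the list. The median SD between replicates was 20.4% of the mean at the 9 members (n = 2 replicates each), beside 18.4% over the 495. In the pooled order rpl-15, rpl-35, rps-16 and rpl-20, the replicates disagreed on both outer pairs: rpl-15 was above rpl-35 and rps-16 above rpl-20 in replicate 2, and the reverse held in replicate 1. In both replicates rpl-35 was above rps-16 and rpl-20, and rpl-3 was above the other 8.

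At 5 of the 9 genes another protein-coding gene started on the opposite strand within 1000 bp upstream, and the summit lay in the window of that gene too. At rpl-20 the summit lay 277 bp from the rpl-20 start and 185 bp from that of Y17G9B.5, with the starts 462 bp apart. For rps-19 the distances were 282 bp to rps-19 and 163 bp to hsr-9, and for rps-20 they were 280 bp to rps-20 and 117 bp to ekl-4. In these 3 short divergent promoters the summit was nearer to the partner gene than to the ribosomal protein gene. In 2 wider divergent promoters it was not: at rpl-15 the summit lay 350 bp upstream of its start, with K11H12.8 starting 814 bp from rpl-15 on the other strand, and at rps-1 it lay 262 bp upstream, with ifet-1, a translational repressor gene, starting 768 bp away. At rps-1 the start nearest to the summit was that of the non-coding RNA gene F56F3.11, at 1 bp.

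The other 4 had no such partner start in the window. The rpl-3 summit lay 260 bp and the rpl-35 summit 451 bp upstream, in sequence between genes. The rpl-24.2 summit lay 139 bp upstream, in an intron of C03D6.1, since the rpl-24.2 start lies inside that gene. The rps-16 summit lay 38 bp downstream of its start in a coding exon. Upstream of rps-16, 109 bp away on the same strand, ends fib-1, which encodes fibrillarin, the methyltransferase of small nucleolar ribonucleoproteins. Counting the starts of every gene, the ribosomal protein gene was nearest to the summit in 5 of the 9 cases (55.6%). The same share was 45.9% over the 209 protein-coding genes with a thresholded summit. Counting protein-coding starts alone, the ribosomal protein gene was nearest in 6 (66.7%), beside 81.3% of the 209.

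**Figure D2:**
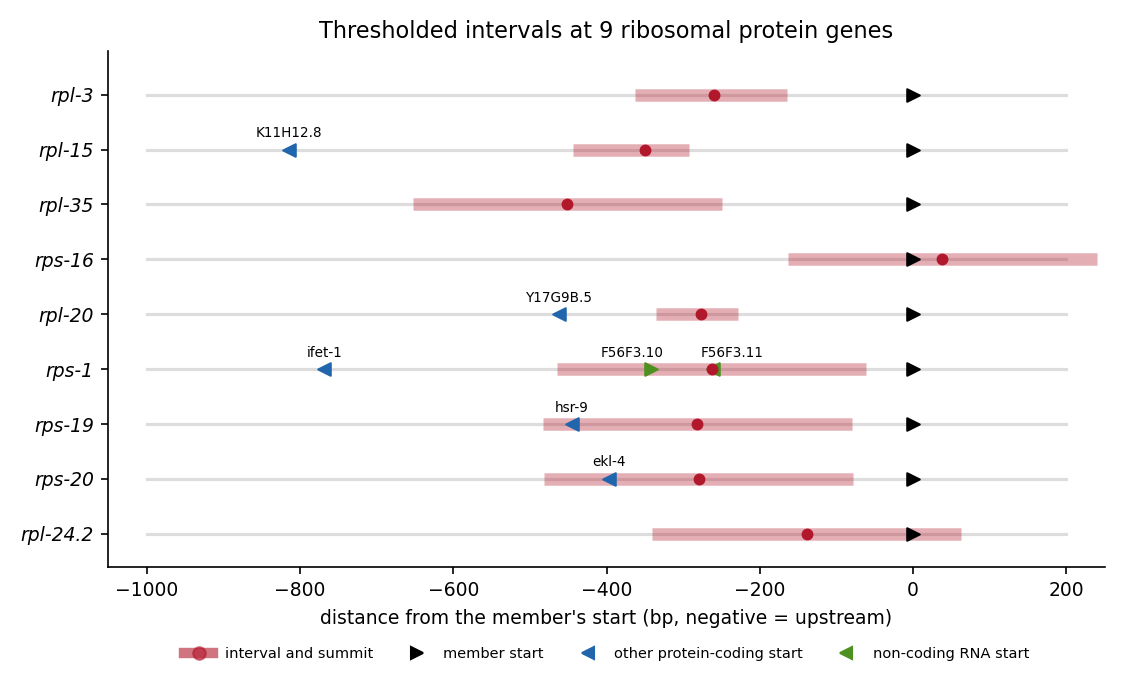
Map of the thresholded interval (red bar) and its summit (red dot) at each of the 9 members, by distance in bp from the member's annotated start (black triangle), over 1000 bp upstream to 200 bp downstream; triangles point in the direction of transcription. In 8 of the 9 (88.9%) the summit is upstream, beside 87.6% of the 209 protein-coding genes with a thresholded summit. The starts of hsr-9, ekl-4 and Y17G9B.5 (blue) are nearer to the summit than that of the ribosomal protein gene.

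The intervals at 3 of the 9 were also narrow. They spanned 199 bp at rpl-3, 153 bp at rpl-15 and 109 bp at rpl-20, while the remaining 6 had the full width of 404 bp that most thresholded intervals have. In the whole list 20 of 501 intervals were narrower than 404 bp. These are widths the authors' procedure assigned, and no label or header says how.

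Other members lay just outside the thresholded list. The next members by pooled signal were rpl-27 at 98.5 (rank 557), rps-26 at 97.9 (rank 567) and rpl-12 at 94.7 (rank 640), close to the 109 of rpl-24.2, the last member inside the list at rank 371. Then came rps-23, a protein of the decoding centre, at 93.5, rps-24 at 90.7 and rpl-41.2, which encodes one of the shortest ribosomal proteins, at 87.2. All 6 were among the 1000 strongest pooled intervals. The rps-26 summit lay 422 bp from the rps-26 start and 35 bp from that of tmem-107, a gene of the ciliary transition zone. The rpl-27 summit lay in a coding exon of C53H9.2, but the nearest start was that of rpl-27 itself, at 625 bp. At the other 4 the member's own start was also the nearest. At that depth 15 of 81 members (18.5%) had a summit, beside 1.84% of all protein-coding genes. Among the 5000 strongest the count was 21 of 81 (25.9%), beside 6.79%.

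The 6 differed in how well the replicates matched. At rps-23 the signals were 45.9 in replicate 1 and 50.1 in replicate 2, and at rps-24 they were 43.4 in replicate 1 and 44.6 in replicate 2. At rpl-12, a protein of the stalk base, they were 24.0 (rank 14033) in replicate 1 and 70.9 (rank 254) in replicate 2, the widest ratio of any matched pair in the family. Its pooled summit was 23 bp upstream of the rpl-12 start, and the promoter is shared with lin-54, whose body lies 392 bp away on the other strand.

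**Figure D3:**
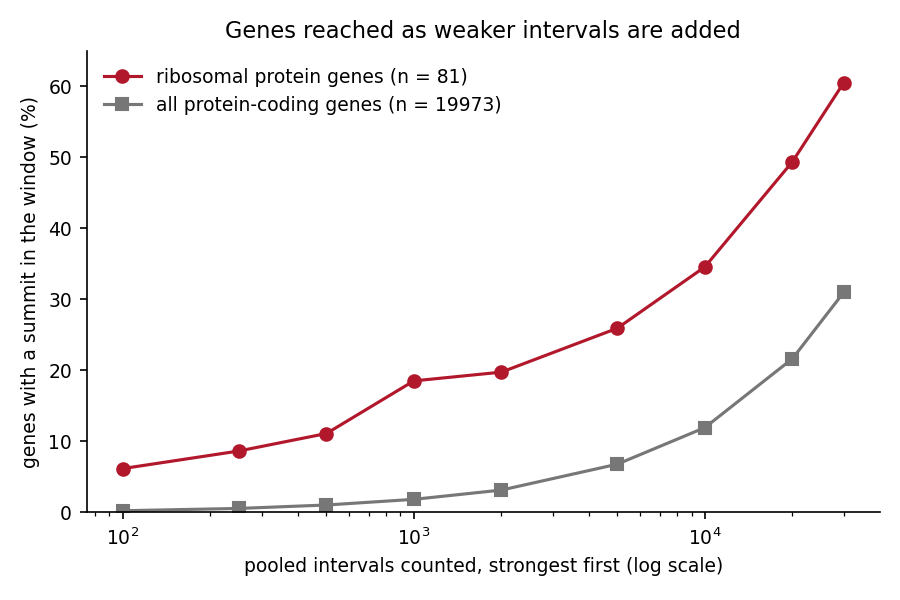
Share of genes with a summit in the window (vertical axis, %) as pooled intervals are added from the strongest to the weakest (horizontal axis, log scale), for the 81 ribosomal protein genes (red circles) and all 19973 protein-coding genes (grey squares). The members' curve lies above at each depth drawn, at 6.17% against 0.240% for 100 intervals and 60.5% against 31% for all 30000.

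The full lists of 30000 intervals hold peaks and background together, and there the family's share was higher than that of all genes but by a smaller factor. In the pooled list 49 of 81 members had a summit (60.5%), beside 31% of all protein-coding genes. Not all of these summits were nearest to the member: counting protein-coding starts, its own start was nearest in 32 of 49 (65.3%), beside 81.5% of the 6188 protein-coding genes with a pooled summit. In replicate 1 a summit was found at 46 members (56.8%), beside 30.6%, and in replicate 2 at 51 (63%), beside 30.9%. A summit in both replicate lists was found at 36 members (44.4%), beside 16.6%. At 29 of these the replicate summits lay within 200 bp of each other, and the same count over other genes is not given here. Among the 501 strongest intervals of a replicate there were 7 members in replicate 1 (8.64%, beside 0.976%) and 9 in replicate 2 (11.1%, beside 1.06%). The 6 members in both sets (7.41%, beside 0.556%) were rpl-3, rpl-15, rpl-35, rpl-20, rps-16 and rps-1.

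The strength of the intervals showed the same order. Where a member had a pooled summit, its strongest interval had a median signal of 54.4, beside 44.7 over the 6188 protein-coding genes with one. The 40 members with a pooled summit but none in the thresholded list had a median of 48.4, at a median rank of 10533. The 5979 such protein-coding genes had 44.1, at a median rank of 14018. These medians cover only genes with an interval and do not show how many genes had one. No test was run on these counts and medians, because the family was picked with earlier results of these data known. Control DNA and precipitations of other proteins were not analysed here, and whether these promoters would be recovered with any tagged protein was not tested.

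Members that were strong in 1 replicate alone were rps-11, rps-19, rps-26 and rpl-12. At rps-11 the interval 650 bp upstream had a signal of 54.6 (rank 416) in replicate 1 and no counterpart within 200 bp in replicate 2, whose strongest interval in the window lay 214 bp upstream with a signal of 47.8. At rps-26, a small subunit protein gene, the strongest interval of replicate 2 lay 954 bp upstream with 62.0 (rank 414), and that of replicate 1 lay 414 bp upstream with 44.9 (rank 1017), near a second interval of replicate 2 with 55.5. The strongest site thus differed between replicates in the windows of rps-11 and rps-26, while at rpl-12 and rps-19 the same site differed in strength.

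Across the 29 members with matched summits, signal in the replicates went together, with a Spearman's rho of 0.79 and, for log2 signals, a Pearson's r of 0.87. These are descriptions over sites that share libraries and a control. The 9 thresholded members had been kept by irreproducible discovery rate and also had the 9 highest pooled signals of the family. Without them, over a narrower range of signal, rho over the other 20 was 0.44 and r was 0.43. The median gap between replicate summits was 19 bp over the 29 and 31.5 bp over the 20. The lowest ratio of replicate 2 to replicate 1 was 0.583 at rps-6, the small subunit protein phosphorylated in growth signalling, with 39.7 in replicate 1 and 23.1 in replicate 2 at summits 162 bp apart.

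**Figure D4:**
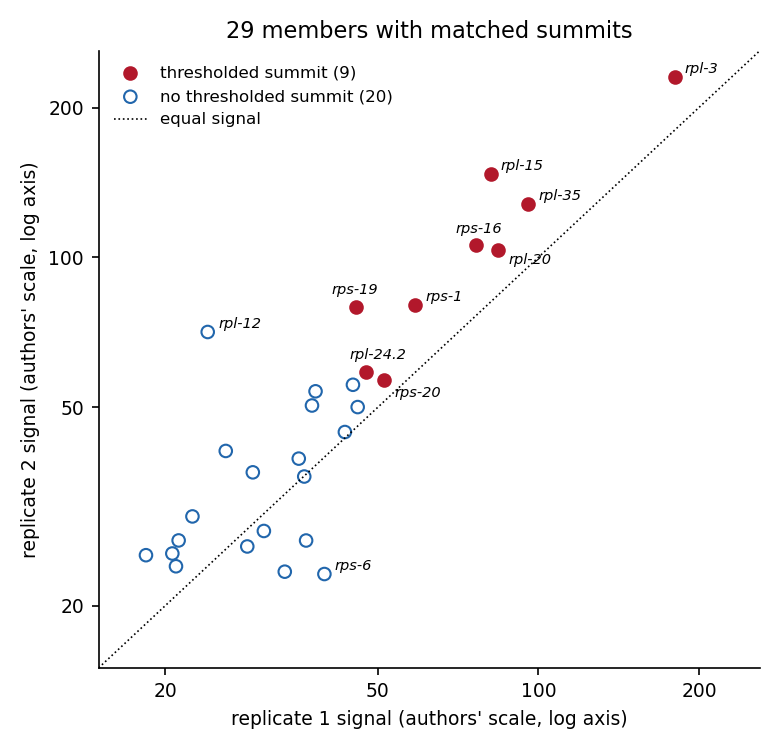
Signal in replicate 2 (vertical, log axis) against replicate 1 (horizontal, log axis) for the 29 members whose replicate summits lay within 200 bp, both on the authors' scale; filled points have a thresholded summit and open points have none. The filled points lie above the dotted line of equal signal at ratios of 1.10 to 1.81, while rpl-12 and rps-6 lie furthest to either side, at 2.95 and 0.583.

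The remaining members had weak intervals or none. The pooled list and at least 1 replicate both had a summit at 43 members (53.1%), beside 29.4% of all protein-coding genes. The pooled list alone had one at 6 (7.41%, beside 1.53%), and a replicate without the pooled list at 18 (22.2%, beside 15.4%). At the last 14 (17.3%, beside 53.6%) no list had a summit in the window: rpl-9, rpl-10, rpl-17, rpl-22, rpl-24.1, rpl-28, rpl-34, rpl-37, rpl-42, rps-2, rps-10, rps-17, rps-29 and rla-2. Such a window says that no interval there ranked in the top 30000, not that the signal was 0. Of the stalk genes, rla-0 had a pooled summit 895 bp upstream with a signal of 46.6, at rank 11922, and an interval of 32.0 in replicate 1 but none in replicate 2. For rla-1 there was an interval of 44.1 at rank 1113 in replicate 1, with its summit 90 bp downstream of the start, and none elsewhere.

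Among genes with paired symbols, some were alike and some were not. Both rpl-25.1 and rpl-25.2 had a pooled summit, with signals of 34.6 and 54.4, and neither rpl-11.1 nor rpl-11.2 had one. The rpl-25.1 summit lay in a coding exon of glit-1, and neither replicate had a summit in its window. At rpl-25.2 both replicates had one. The tandem genes rpl-41.1 and rpl-41.2 shared a weak interval of replicate 1 (signal 19.6), but the pooled interval at rank 903 was in the window of rpl-41.2 and none was in that of rpl-41.1. Neighbours could also share an interval. The divergent pair rpl-39 and rps-30 shared 1 interval, with a pooled signal of 53.4 and a replicate 1 signal of 44.8, that replicate 2 did not have. The neighbours rpl-36 and rps-14 shared a weak one, with a pooled signal of 35.2. Because of these shared intervals the 68 pairs of a member and a pooled interval rested on 66 distinct intervals.

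Summits at the family were less spread over the window than those of other genes. The strongest pooled summit was upstream of the start in 43 of 49 members (87.8%), beside 78.9% of all protein-coding genes with one. Its median position was 309 bp upstream (middle 50% from 194 to 555 bp), beside 336.5 bp (42.75 to 669 bp) over those genes. From 200 to 400 bp upstream lay 18 of the 49 (36.7%), beside 15.7% of the 6188 genes. In the thresholded list it was 6 of 9, beside 25.4% of 209 genes. The excess in that stretch was smaller without the thresholded members, with 12 of 40 (30%). In replicate 1 it was 14 of 46 (30.4%), and 8 of 37 (21.6%) without the thresholded members, beside 15.8%. In replicate 2 it was 18 of 51 (35.3%), and 12 of 42 (28.6%) without them, beside 15.7%. The limits of 200 and 400 bp were set after the positions had been seen. By annotation, 27 of the 49 pooled summits were intergenic (55.1%), beside 46.7% over all protein-coding genes with one, and 13 lay in a coding exon (26.5%, beside 27.8%). Introns held 4 (8.16%, beside 12.1%), exons of non-coding RNA genes 4 (8.16%, beside 4.52%) and untranslated regions 1 (2.04%, beside 8.9%).

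**Figure D5:**
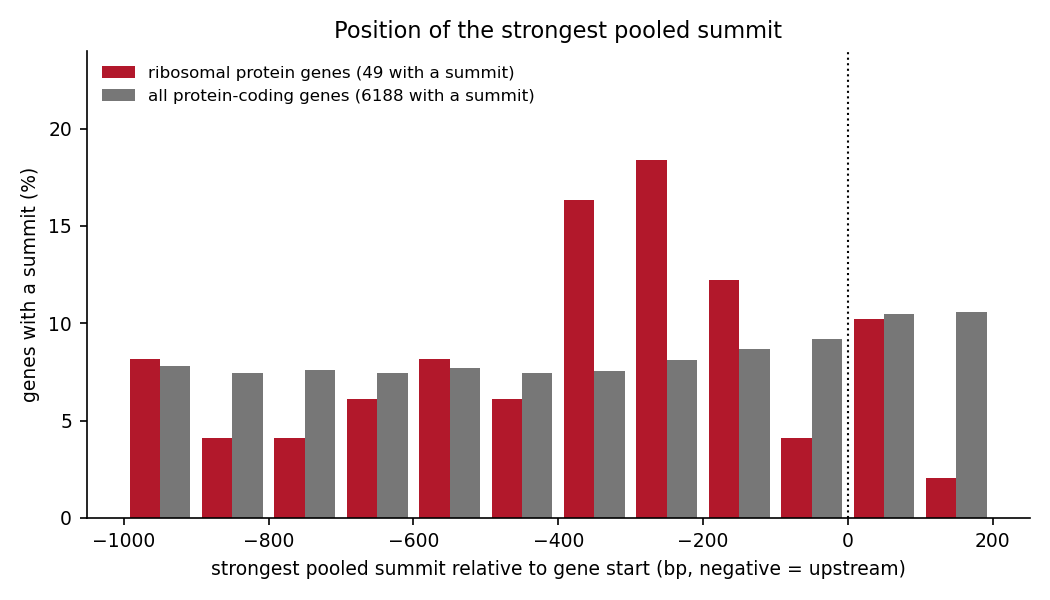
Position of the strongest pooled summit relative to the annotated start (horizontal axis, bp in bins of 100, negative is upstream), as a share of the 49 ribosomal protein genes with one (red) and of the 6188 protein-coding genes with one (grey). The red bars are highest between 200 and 400 bp upstream, a stretch with 18 of the 49 members, while the grey bars show no such peak.

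The family has a gene arrangement of its own that the choice by symbol did not use. A divergent protein-coding neighbour whose body begins within 1000 bp upstream was found for 48 of 81 members (59.3%), beside 17.2% of all protein-coding genes. Among the 9 thresholded members it was 5 (55.6%) and among the other 72 it was 43 (59.7%). Over the 209 protein-coding genes with a thresholded summit it was 23%. Whether the arrangement bears on the peaks was not tested. A neighbour on the same strand within 1000 bp was found for 24 members (29.6%), beside 27.8%. The genes are also short, with a median length of 754 bp beside 2027 bp, and 2 of 81 lie on chromosome X (2.47%), beside 13.7% of all protein-coding genes.

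Many ribosomal protein genes carry small nucleolar RNA genes, which guide the modification of ribosomal RNA, in their introns. An annotated snoRNA gene lay inside 13 of 81 members (16%), beside 0.961% of all protein-coding genes. Of the 9 thresholded members this applied to rpl-15 alone, which holds K11H12.12 and K11H12.13, and of the other 72 to 12 (16.7%). The peak of rpl-15 was not at these genes: its summit lay 350 bp upstream of rpl-15, outside the gene. None of the 9 thresholded summits was within 250 bp of a tRNA or snoRNA start, and among the 49 pooled summits there were 2, at rps-26 and rpl-26. The same share over all protein-coding genes is not given here, so these counts describe the members alone.

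The words seen in the printed sequences were counted over all summits. Of 2080 words of 6 bases, with the strands joined, 13 were present in the 101 bp at 4 or more of the 9 thresholded summits. They overlap each other, and so are not 13 separate patterns. The most frequent was GAGTGT (either strand), at 6 of the 9 (rpl-3, rpl-15, rpl-20, rpl-24.2, rps-1 and rps-19), beside 5.89% of the other 492 thresholded summits and 3.93% of all pooled summits. TACGGT was at 4 of the 9, beside 2.24% of the other thresholded summits and 3.23% of pooled summits. AGTGTA was at 5 of the 9, beside 3.86% and 3.36%. Because these words were picked for being frequent at the 9, those counts are a description.

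The words differed among themselves in the 72 members without a thresholded peak. TACGGT was present in the 500 bp upstream of the start in 30 of the 72 (41.7%), beside 13.9% of all protein-coding genes. This was the highest share of the 13 words in the 72, so it is a description too. Words tied with TACGGT at 4 of the 9 summits went both ways in the 72. CACTCG was in 25%, beside 8.87%, and CATACA in 6.94%, beside 18.1%. GAGTGT was present in 19 of the 72 (26.4%, beside 15.7%). AGTGTA, in contrast, was in 4 of the 72 (5.56%, beside 17.7%), and GTATGC, found at 5 of the 9 summits, in 2 of the 72 (2.78%, beside 8.81%). At the 39 pooled summits of those members TACGGT was present at 6 (15.4%), GAGTGT at 5 (12.8%) and AGTGTA at 2 (5.13%). A match is a stretch of letters and not a shown binding site.

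Words of known factors were searched on either strand in the 250 bases before to 50 after each start. AGGTCA, the half-site of many nuclear hormone receptors, was in 6 of 81 member promoters (7.41%), beside 8.27% of all protein-coding promoters, and in none of the 9 with a thresholded summit. In the 101 bp at the members' strongest pooled summits it was at 3 of 48 (6.25%), beside 2.64% of all pooled summits. GATAAG, bound by GATA factors, was in 6 (7.41%, beside 16.7%), the E-box CACGTG in 1 (1.23%, beside 5.82%) and CTGCGTC in 1 (1.23%, beside 4.34%). GAGAGA was in 17 (21%, beside 21.8%). TTTCAG, the worm splice acceptor sequence of cis- and trans-splicing, was in 57 (70.4%, beside 51.7%). In the 101 bp at the 9 summits GAGAGA was present at 2, beside 11.4% of all 501 thresholded summits. The other 5 words were absent, and each was infrequent at those 501 too, from 2% for CACGTG to 8.78% for TTTCAG. The median share of G and C in the 101 bp at the 9 summits was 51.5%, beside 48.5% at all 501 thresholded summits and 42.6% at all pooled summits. In the stretch from 250 bases before to 50 after the start it was 33% over the 81 members and 32% over the 9. All protein-coding genes had 34.3% there. Most of the 9 summits lay more than 250 bp upstream, outside that stretch, so word counts in it do not cover the sequence at those summits.

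Other genes of translation were scored by the same rule. In the thresholded list there were 2 of 71 mitochondrial ribosomal protein genes (2.82%), 2 of 41 translation factor genes (4.88%), 1 of 29 genes of ribosome assembly and RNA polymerase I (3.45%) and none of 32 aminoacyl-tRNA synthetase genes, to be read against 1.05% of all protein-coding genes. The mitochondrial genes were mrpl-23, whose peak lay 12 bp from the snoRNA gene T08B2.13, and mrpl-32, with signals of 58.4 in replicate 1 and 42.7 in replicate 2. The translation factors were eef-2, which drives ribosome movement along the messenger RNA, with 65.7 in replicate 1 and 56.6 in replicate 2, and eif-2Bgamma, whose peak lay 19 bp from a piRNA gene. The assembly gene was pro-1, with 69.8 in replicate 1 and 94.6 in replicate 2. In the pooled list the shares were 42.3% of mitochondrial ribosomal protein genes, 56.1% of translation factor genes, 44.8% of assembly genes and 40.6% of synthetase genes, beside 60.5% of the cytosolic family and 31% of all protein-coding genes. The differences between these lists were not tested. The ubiquitin fusion genes ubl-1 and ubq-2, each of which encodes ubiquitin joined to a ribosomal protein, both had a pooled summit and neither had a thresholded one.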

How the data were processed

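Chromatin immunoprecipitation intervals from 2 libraries, separate biological replicates of a single group per the labels, were analysed with Python 3.11.15, pandas 2.3.3, NumPy 2.4.6 and SciPy 1.17.1. Per the labels, the authors made 4 interval lists in assembly ce11 against a shared control alignment: 30000 intervals per replicate, 30000 from both replicates pooled, and 501 thresholded ones. No label or header used here names the caller or its settings. The deposited signal value of each interval was used to rank and describe intervals, the deposited summit offset to place them. No result rests on the −log10 q-value, a q-value column the authors deposited. Depth is unknown, since no read totals were used here, and intervals on shares (exact, 95%) cover the counting error of genes.

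Starts, symbols and biotypes came from Ensembl release 115 (WBcel235, 46890 nuclear genes), and interval ends lay within its chromosomes. Starts were identical to RefSeq's most upstream transcript start for 75 of 81 members. Matching meant summits within 200 bp. Of 32 symbols listed for ribosome assembly 29 were found. The members and lists were chosen with earlier results of these data known, and no set test was run. Named were all members with a thresholded peak, the next 6 by pooled signal and those among the 501 strongest of 1 replicate; the 14 members without an interval, the family pairs, tandem and shared genes, the stalk genes, rps-6 and rpl-26 were named after their values were seen. Gene assignment was tested on simulated data. Alternatives were other windows, starts, lists, replicates alone, and members by RefSeq symbol.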

Additional observations from a re-analysis of the deposited data

How the results depend on the processing

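The count of 9 members with a thresholded peak was 9 in each of the other windows, with RefSeq starts, without intervals at tRNA and snoRNA starts and by overlap of the interval. It was 7 with the 250 strongest peaks, 6 when the member had to have the nearest protein-coding start, and 7 to 9 from the 501 strongest intervals of a single replicate. With members taken by RefSeq symbols (82 genes, 78 of them shared), chosen after seeing the data, it was 8, as rpl-24.2 drops out. Of 49 values under alternatives 40 were within 1.5 times the reported count or within 1 SD between replicates of the reported median. These include 26 members with a summit in both replicates in a narrower window (500 bp upstream, 100 bp downstream), in place of 36. A wider window (2000 bp upstream, 500 bp downstream) gave 59 members with a summit in both replicates in place of 36, and the 10000 strongest intervals of each replicate gave 19. The 1002 strongest gave 10 members in both replicates in place of 6. These alternative counts have no share of all protein-coding genes by the same setting beside them. They show how the count moved, not whether the difference from other genes did. The median signal, 54.4 in the pooled list, was 32.3 to 36.6 in single replicates, whose signal scale is lower. The median summit position, 309 bp upstream, was 261 bp in the narrower window, 337.5 bp in the wider one, 277 bp in the thresholded list and 271 to 308.5 bp in single replicates; the cause was not tested. No paired analysis was possible because the series has a single group. Depth is unknown, so a window without an interval cannot be told apart from one with a weak signal.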
